A study of Mus musculus with 14 samples.

Results

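Resident Kupffer cell genes are genes by which the macrophages that live in the liver sinusoids are recognised. The set held 10 genes, named by symbol: Clec4f, Vsig4, Cd5l, Timd4, Marco, Cd163, Adgre1, Csf1r, Folr2 and Spic. Each symbol had 1 row among the 55357 genes of the count files, and all 10 were among the 12915 genes with enough counts to be tested. The 8 model samples were livers of male C57BL/6 mice given LPS (lipopolysaccharide from the bacterial outer membrane, 10 µg/kg) together with D-GalN (D-galactosamine, an amino sugar toxic to hepatocytes, 300 mg/kg) into the peritoneum, the study's model of acute liver failure. The 6 control samples were livers of male C57BL/6 mice given saline. All mice were 5 to 6 weeks old with a body weight of 21.5 to 25 g, and livers were taken 24 h after the injection. The labels name separate samples but do not say that each came from its own animal, and the p-values therefore cover only the spread among the samples, which may be technical. The identifiers in the files, with chromosomes from the GRCm38 annotation, were Clec4f ENSMUSG00000014542.4 (chromosome 6), Vsig4 ENSMUSG00000044206.4 (chromosome X), Cd5l ENSMUSG00000015854.8 (chromosome 3), Timd4 ENSMUSG00000055546.7 (chromosome 11), Marco ENSMUSG00000026390.8 (chromosome 1), Cd163 ENSMUSG00000008845.10 (chromosome 6), Adgre1 ENSMUSG00000004730.16 (chromosome 17), Csf1r ENSMUSG00000024621.17 (chromosome 18), Folr2 ENSMUSG00000032725.11 (chromosome 7), Spic ENSMUSG00000004359.17 (chromosome 10).

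Kupffer cells arise largely before birth and renew themselves in the liver. Contact with sinusoidal endothelium, stellate cells and hepatocytes keeps their identity genes on. They remove bacteria, complement-coated particles, dying cells and haemoglobin from portal blood. In liver inflammation, monocytes from the blood enter the liver, and some of them can take up Kupffer cell genes. The gene set mixes genes that are largely restricted to Kupffer cells in the mouse liver (Clec4f, Vsig4, Timd4) with genes of many macrophages (Adgre1, Csf1r).

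The members did not move as a block. In the model livers Spic, Marco, Adgre1 and Timd4 rose, Vsig4, Cd5l and Cd163 fell, and Clec4f, Folr2 and Csf1r did not pass the test, by edgeR's quasi-likelihood test with Benjamini-Hochberg adjustment over all genes tested. The test called 7 of the 10, beside 47.9% of all 12915 genes, with 4 higher beside 26.6% of all genes and 3 lower beside 21.3%. The median log2 fold change (model over control) was 0.51 over the 10 members and 0.01 over all genes tested. For 6 members no model value lay within the control range, 4 of them higher and 2 lower in model, beside 14.6% (higher) and 8.63% (lower) of all genes tested. With library totals in place of scaling factors, 2533 of all genes were higher and 3955 lower, against 3437 and 2751 here. In whole liver RNA, fewer Kupffer cells and less RNA of a gene per cell cannot be told apart.

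**Figure D1:**
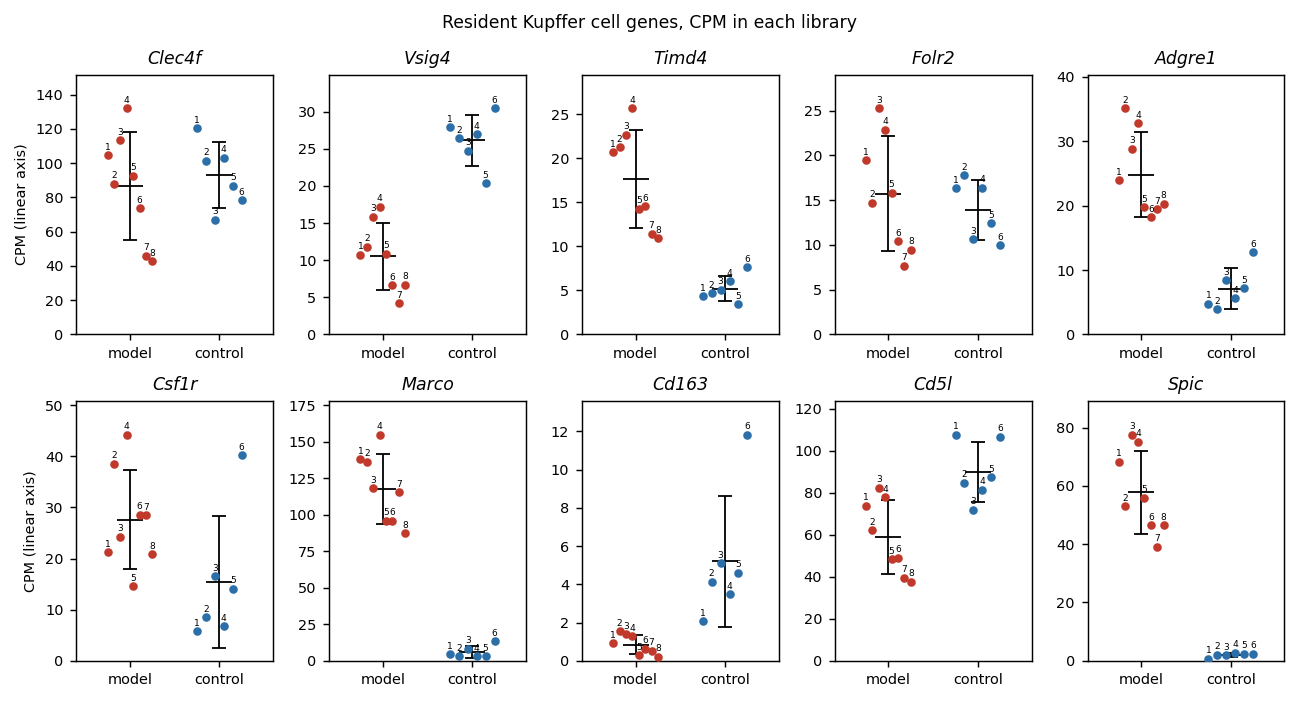
CPM (gene counts scaled to library size with TMM factors) of each resident Kupffer cell gene on linear axes, 1 point per library with its replicate number, in the 8 model and 6 control livers; black bars give mean and SD. Marco and Spic lie near the bottom of the axis in every control and far above it in every model liver, Vsig4 and Cd163 lie lower in every model liver, and Clec4f overlaps between the groups, with 2 model livers below and 1 above the control range.

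Promoter sequences are shown for the pair of members with the largest rises (Spic and Marco), the marker that fell (Vsig4) and the marker that did not pass the test (Clec4f), to set members of unlike response side by side. Each is the 250 bases before the annotated start in RefSeq on GRCm38.p6, a build other than the GRCm39 of the counts, written 5′ to 3′ on the gene's strand. Capitals mark GAGGAA, a core of sites for ETS factors of the PU.1 and Spi-C kind, searched on both strands. The Spic stretch is chr10:88683024-88683273 (minus strand), the Marco stretch chr1:120505025-120505274 (minus strand), the Vsig4 stretch chrX:96293439-96293688 (minus strand) and the Clec4f stretch chr6:83656117-83656366 (minus strand).
Spic: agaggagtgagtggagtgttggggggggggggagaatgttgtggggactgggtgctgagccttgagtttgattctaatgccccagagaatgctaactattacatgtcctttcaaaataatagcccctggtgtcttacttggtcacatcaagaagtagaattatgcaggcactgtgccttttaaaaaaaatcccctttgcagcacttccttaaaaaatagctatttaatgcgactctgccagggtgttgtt
Marco: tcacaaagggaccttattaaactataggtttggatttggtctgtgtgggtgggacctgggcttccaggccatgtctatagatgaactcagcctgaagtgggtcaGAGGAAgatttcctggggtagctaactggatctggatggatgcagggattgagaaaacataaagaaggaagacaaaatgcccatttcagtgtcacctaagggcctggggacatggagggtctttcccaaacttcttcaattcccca
Vsig4: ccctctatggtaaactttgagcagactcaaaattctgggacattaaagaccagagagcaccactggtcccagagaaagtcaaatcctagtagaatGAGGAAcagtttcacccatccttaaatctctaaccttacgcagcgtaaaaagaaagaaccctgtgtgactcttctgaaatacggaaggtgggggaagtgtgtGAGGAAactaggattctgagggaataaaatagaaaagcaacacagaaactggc
Clec4f: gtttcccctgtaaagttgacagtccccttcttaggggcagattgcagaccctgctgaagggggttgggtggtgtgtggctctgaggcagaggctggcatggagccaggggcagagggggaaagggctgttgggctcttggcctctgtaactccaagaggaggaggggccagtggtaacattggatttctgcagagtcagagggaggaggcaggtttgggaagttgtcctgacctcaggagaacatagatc

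The RefSeq table held 9 promoters of 8 members (Folr2 has 2), with no entry used for Adgre1 and Csf1r. GAGGAA lay in the Vsig4, Cd5l and Marco promoters, 3 of 9, beside 23.3% of all 32851 promoters of the same length. Vsig4 held it at 2 places, starting 155 and 53 bases before the gene start. The RBPJ core TGGGAA, read by the factor downstream of Notch, lay in 2 of the 9 (Clec4f and Marco), beside 21.6% of all promoters. The MAF motif TGCTGAC lay in the Timd4 promoter and the AP-1 motif TGANTCA in a Folr2 promoter, beside 3.81% and 6.75% of all promoters. An NF-kB motif and the LXR direct repeat were found in 0 of the 9, beside 1.21% and 0.0152% of all promoters. No match of these motifs overlapped a match of another motif in the member promoters. The matches describe letters in these windows only.

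The marker lectin Clec4f stood apart from the marker receptor Vsig4. Clec4f, a C-type lectin made almost only by Kupffer cells in mice, had 42.7, 90.3 and 132 CPM (lowest, median and highest) in the 8 model livers, against 66.9, 94.2 and 120 CPM in the 6 control livers. The groups overlapped. Model 7 and model 8, at 46.0 and 42.7 CPM, lay below every control, and model 4 lay above every control. The log2 fold change was -0.10 (SE 0.25, adjusted p = 0.758), and its 95% interval, from -0.64 to 0.44, leaves room for a fold between 0.643 and 1.36.

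Vsig4, the complement receptor by which Kupffer cells take particles coated with C3 fragments from the blood, had 4.23, 10.8 and 17.2 CPM (lowest, median and highest) in model livers, against 20.4, 26.7 and 30.4 CPM in control livers. Every model liver lay below every control liver. Vsig4 fell by 1.31 on the log2 scale (SE 0.27, adjusted p = 0.000585). Within each library, where no scaling factor enters, there were 0.0901 to 0.157 Vsig4 counts per Clec4f count in model, against 0.232 to 0.388 in control, without overlap.

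The scavenger receptors with cysteine-rich domains went in opposite directions. Marco, a receptor for bacteria and unopsonised particles, had 87.3, 117 and 155 CPM (lowest, median and highest) in model livers, against 2.97, 3.90 and 13.3 CPM in control livers. Its lowest model value was above its highest control value, and controls 3 and 6, at 8.12 and 13.3 CPM, were the highest controls. Marco rose by 4.30 on the log2 scale (SE 0.37, adjusted p = 3.45e-08). It rose by 5.14 without control 3 and control 6, its highest controls and a pair chosen after seeing the data. Marco counts exceeded Clec4f counts in 8 of 8 model libraries and in 0 of 6 control libraries, with a median of 1.31 Marco counts per Clec4f count in model and 0.0372 in control.

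Cd163, the receptor for complexes of haemoglobin and haptoglobin, had 0.207, 0.776 and 1.54 CPM (lowest, median and highest) in model livers, against 2.06, 4.38 and 11.8 CPM in control livers. The groups did not overlap, but the level was low, with 3 to 23 counts per model library and 16 to 216 per control library. Control 6 alone lay above the other controls by more than their whole spread. Cd163 fell by 2.63 on the log2 scale (SE 0.43, adjusted p = 8.32e-05). It fell by 2.01 without control 3 and control 6, its highest controls and a pair chosen after seeing the data. Its log2 fold change lay lower than that of all but 0.859% of genes tested.

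Cd5l, a secreted protein of the same domain family that travels with IgM and that nuclear receptors of the LXR type switch on in mouse macrophages, had 37.7, 55.5 and 82.5 CPM (lowest, median and highest) in model livers, against 71.9, 86.1 and 108 CPM in control livers. The groups overlapped, with 5 of 8 model livers below every control. Cd5l fell by 0.61 on the log2 scale (SE 0.21, adjusted p = 0.0202). The call was lost without control 6 (adjusted p = 0.0521) and without model 7 and model 8 (0.0780).

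Timd4, a receptor for phosphatidylserine on dying cells and a marker of long-lived resident macrophages, was higher in model. It had 10.9, 17.6 and 25.7 CPM (lowest, median and highest) in model livers, against 3.46, 4.88 and 7.61 CPM in control livers. The groups did not overlap, although model 7 and model 8, at 11.4 and 10.9 CPM, were again the lowest model livers. Timd4 rose by 1.75 on the log2 scale (SE 0.26, adjusted p = 2.14e-05). There were 0.154 to 0.255 Timd4 counts per Clec4f count in model libraries and 0.0363 to 0.0970 in control libraries.

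Folr2, the folate receptor beta of resident macrophages, had 7.69, 15.3 and 25.3 CPM (lowest, median and highest) in model livers, against 9.96, 14.4 and 17.8 CPM in control livers. The groups overlapped on both sides, with 3 model livers above and 2 below the control range. Its log2 fold change was 0.17 (SE 0.27, adjusted p = 0.618), with a 95% interval from -0.42 to 0.76. Folr2 counts per Clec4f count were 0.141 to 0.222 in model libraries and 0.127 to 0.176 in control libraries, with overlap. In the annotation for GRCm38, exons of Folr2 overlap Gm10602 on the other strand, which had at most 1.17 CPM in model and 1.03 CPM in control, and the strand setting of the counting is not given in the sources used here.

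The genes shared with other macrophages were Adgre1 and Csf1r. Adgre1, an adhesion receptor used as a general mouse macrophage marker, had 18.2, 22.1 and 35.1 CPM (lowest, median and highest) in model livers, against 3.92, 6.38 and 12.8 CPM in control livers. The groups did not overlap, and Adgre1 rose by 1.79 on the log2 scale (SE 0.27, adjusted p = 3.52e-05). Clec4f counts per Adgre1 count were 2.11 to 4.68 in model libraries and 6.12 to 25.9 in control libraries, without overlap.

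Csf1r, the receptor for CSF1 and IL-34 on which macrophage survival depends, had 14.6, 26.4 and 44.2 CPM (lowest, median and highest) in model livers, against 5.78, 11.3 and 40.2 CPM in control livers. The groups overlapped: control 6, at 40.2 CPM, lay above 7 of 8 model livers, and control 3, the next control at 16.6 CPM, above the lowest model liver. The log2 fold change was 0.84 (SE 0.39, adjusted p = 0.0825), with a 95% interval from -0.0039 to 1.68. Without control 6 it was 1.45 (adjusted p = 0.00148), and without control 3 and control 6 it was 1.71 (adjusted p = 0.00064). These p-values give no added support. Control 3 and control 6, a pair chosen after seeing the data, were the highest Csf1r controls, so leaving them out raises the fold change by construction. In these libraries long transcripts ran high: the Spearman correlation across genes between exonic length and deviation from the group mean was 0.45 in control 3 and 0.56 in control 6, against -0.47 to 0.03 in the other controls and -0.48 to 0.44 in model libraries. The part of transcript length in the Csf1r and Cd163 values was not tested beyond an offset for length and GC content, with which the log2 fold changes were 0.61 and -2.82. Exons of Csf1r overlap Hmgxb3 on the other strand, which was at 12.0 ± 5.20 CPM in model and 6.55 ± 2.87 CPM in control (SD, n = 8 and 6). How reads in that overlap were assigned is not given in the sources used here.

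The transcription factor Spic showed the largest rise of the 10. Spi-C directs the red pulp macrophages of the mouse spleen and is switched on by heme in monocytes and macrophages. It had 39.2, 54.5 and 77.6 CPM (lowest, median and highest) in model livers, against 0.771, 2.29 and 2.80 CPM in control livers, where it rested on 6 to 45 counts per library. The groups did not overlap. Spic rose by 4.77 on the log2 scale (SE 0.28, adjusted p = 4.53e-10), and its log2 fold change ranked 298 from the top among the genes tested. There were 0.570 to 1.09 Spic counts per Clec4f count in model libraries and 0.00640 to 0.0314 in control libraries.

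**Figure D2:**
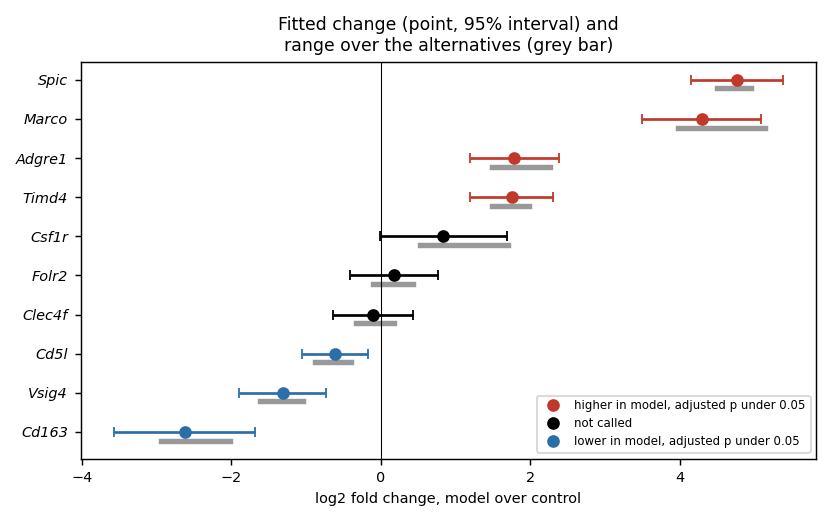
Log2 fold change (model over control) of the 10 members with its 95% interval, coloured by the call at an adjusted p under 0.05; grey bars give the range over 25 alternatives. Spic at 4.77 and Marco at 4.30 lie far to the right, Cd163 at -2.63 far to the left, and the intervals of Csf1r, Folr2 and Clec4f cross 0.

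The order of the levels changed between the groups. Per kilobase of exon, the highest members in model livers were Marco (61.2 ± 12.5 CPM per kb), Clec4f (35.1 ± 12.7), Cd5l (28.9 ± 8.68) and Spic (15.0 ± 3.72), and in control livers Cd5l (44.2 ± 7.04 CPM per kb), Clec4f (37.6 ± 7.80), Vsig4 (17.6 ± 2.29) and Folr2 (9.01 ± 2.16; SD, n = 8 and 6). In model, the ranges of neighbours in the order overlapped down to Csf1r at 4.78 ± 1.69 CPM per kb, and only Cd163, at 0.156 ± 0.0935, was separated from the member above it. In control, Vsig4 was separated from Clec4f above and from Folr2 below, while Folr2, Marco, Csf1r, Timd4, Adgre1, Cd163 and Spic each overlapped their neighbour. Spic was the lowest member in control, at 0.543 ± 0.186 CPM per kb.

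Within the model group, the lowest library was model 7 or model 8 for 8 of 10 members, the exceptions being Adgre1 (model 6) and Csf1r (model 5). The share of all genes tested that were lowest in model 7 or model 8 was not computed. The count is therefore a description and not a trait of the members. Over all 14 libraries, with the group means removed, Folr2 followed the mean log2 CPM of Clec4f and Vsig4 most closely among the members (Pearson r = 0.92), then Cd5l (0.87) and Timd4 (0.77). Cd163 (0.43), Spic (0.41), Adgre1 (0.30), Marco (0.17) and Csf1r (-0.02) followed it less. Among 7686 genes ranked by this r, Folr2 ranked 7, Cd5l 61 and Timd4 379, so many genes outside the set followed the pair as closely as Cd5l and Timd4. Outside the members, the 5 genes most like Clec4f and Vsig4 among the 7686 ranked were C1qc, a subunit of complement C1q made by macrophages (0.95), Pstpip2, an adaptor of myeloid cells (0.94), Hjv, the hemojuvelin co-receptor of hepatocytes (0.93), the predicted gene Gm52969 (0.93) and Psen2, a presenilin (0.93). Within the 8 model libraries alone r was 0.97 for C1qc, 0.98 for Pstpip2, 0.97 for Hjv, 0.98 for Gm52969 and 0.95 for Psen2. Within the 6 control libraries it was lower, at 0.87 for C1qc, 0.39 for Pstpip2, 0.34 for Hjv, 0.68 for Gm52969 and 0.67 for Psen2. These are correlations across 14 libraries that share depth and scaling with every gene, given as a description. With the group means removed, r does not describe the change between the groups. Between the groups, Hjv fell by 3.26 (SE 0.35) and Gm52969 by 1.13 (SE 0.26). C1qc, Pstpip2 and Psen2 did not pass the test, at -0.03 (SE 0.19), 0.56 (SE 0.25) and -0.48 (SE 0.28). Pstpip2 was called in 4 of 25 alternatives and Psen2 in 3.

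**Figure D3:**
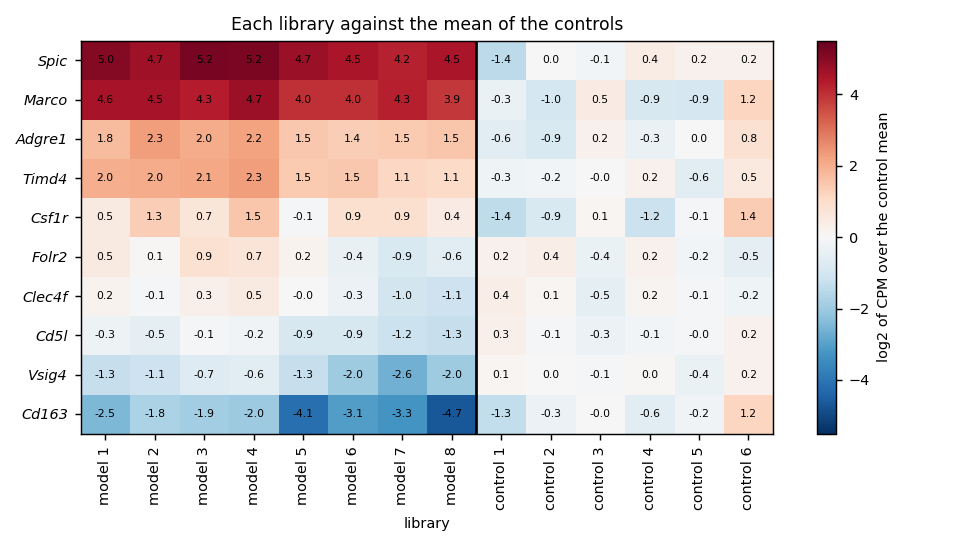
Log2 of each library's CPM over the mean of the controls, with rows for members ordered by fitted fold change and columns for the 8 model and 6 control libraries. Model 7 and model 8 have the lowest model values for Clec4f (-1.02 and -1.12) and Cd5l (-1.18 and -1.26), and control 6 has the highest control values for Csf1r (1.39), Cd163 (1.18) and Marco (1.18).

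**Figure D4:**
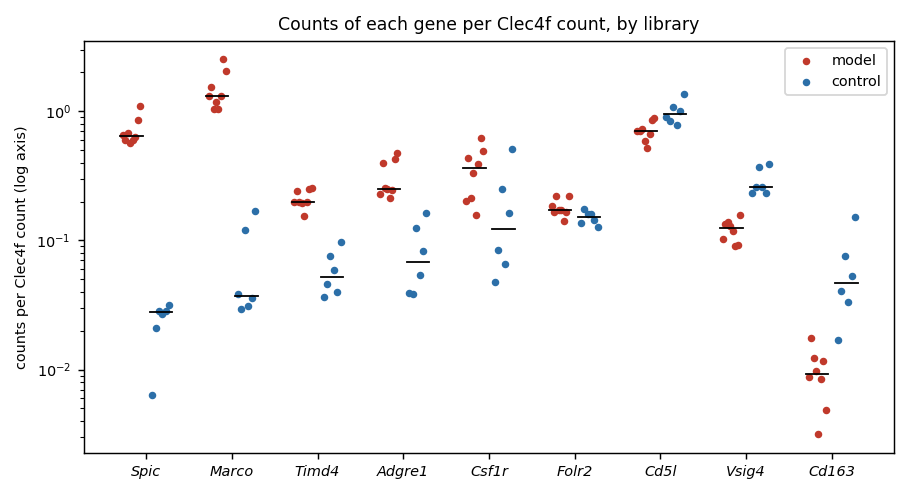
Counts of each of the other 9 members per Clec4f count in every library, on a log axis, with black bars for medians. Spic, Marco, Timd4 and Adgre1 lie higher in every model library than in any control, Vsig4 lies lower in every model library, and Csf1r, Folr2, Cd5l and Cd163 overlap.

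Genes that maintain Kupffer cells moved in both directions. Of 15 transcription factors of the lineage, 8 rose and 2 fell (median 1.04 on the log2 scale, against 0.01 over all genes tested). Beside this list and those that follow, 26.6% of all genes tested rose and 21.3% fell. Irf8, a factor of monocytes and macrophages, was at 56.1 ± 23.5 CPM in model and 5.38 ± 0.937 CPM in control (SD, n = 8 and 6) and rose by 3.39 (SE 0.30), Spi1, which encodes PU.1, rose by 2.82 (SE 0.21) and Id3, a factor needed for Kupffer cell development, by 2.32 (SE 0.48). The pair that fell, chosen for mention after their values were seen, were Maf, by 1.01 (SE 0.19, adjusted p = 0.000237), and Nr1h3, the LXR alpha receptor that sustains Kupffer cell identity, by 0.75 (SE 0.29, adjusted p = 0.0433). In control, Nr1h3 was at 163 ± 55.7 CPM, against 92.9 ± 19.3 CPM for Clec4f (SD, n = 6). Which liver cells the Nr1h3 reads came from was not tested. The call on Nr1h3 was lost in 10 of 25 alternatives, with adjusted p up to 0.149. It was lost without model 4, 6, 7 or 8 and without control 1, 2, 4 or 5.

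Of 15 signals from neighbouring cells and their receptors, 14 were tested, 9 rose and 2 fell, with a median of 1.59. Csf1, a ligand of Csf1r, was at 87.6 ± 28.5 CPM in model and 3.46 ± 2.07 CPM in control (SD, n = 8 and 6), a rise of 4.62 (SE 0.40). Bmp10, a ligand of the BMP family, rose by 2.33 (SE 0.29), and Notch1 by 2.26 (SE 0.33). The pair that fell, also picked after their values were seen, were Gdf2, which encodes BMP9, by 1.41 (SE 0.39), and the Notch ligand Dll4, by 1.18 (SE 0.46, adjusted p = 0.0450), whose call was lost in 11 of 25 alternatives (adjusted p up to 0.115), among them those without model 2, 3, 4 or 5 or without control 1, 2, 3, 5 or 6. Csf2 was not tested and had no count in control.

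Of 14 other genes used to recognise Kupffer cells, 13 were tested, 8 rose and 2 fell, with a median of 0.70. Vcam1, an adhesion molecule also of endothelium, rose by 4.92 (SE 0.38), and Hmox1, heme oxygenase, was at 342 ± 159 CPM in model and 17.1 ± 4.44 CPM in control (SD, n = 8 and 6), a rise of 4.32 (SE 0.33). Slc40a1, the iron exporter ferroportin, was at 15.5 ± 3.35 CPM in model and 108 ± 16.2 CPM in control and fell by 2.79 (SE 0.18, adjusted p = 1.3e-09). Clec1b, the other that fell, named after its value was seen, fell by 1.14 (SE 0.34).

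Of 15 further scavenger and phosphatidylserine receptors and partners, 13 were tested, 6 rose and 2 fell (median 0.69). Havcr2 (Tim-3) rose by 2.75 (SE 0.57), Msr1, a class A scavenger receptor, by 2.17 (SE 0.27) and Axl, a receptor for bridged dying cells, by 1.92 (SE 0.25). Havcr2 rested on 12 counts over all controls. The pair that fell, named after their values were seen, were Mrc1, by 0.97 (SE 0.37, adjusted p = 0.0391), and Colec12, by 0.70 (SE 0.20, adjusted p = 0.00909). The call on Mrc1 was lost in 12 of 25 alternatives, among them those without model 1, 5, 6, 7 or 8 and without control 2, 3, 4 or 6 (adjusted p up to 0.134), and that on Colec12 without control 3 and control 6 (0.0932). Of 12 haemoglobin and folate partners and sheddases, 11 were tested, 5 rose and 1 fell (median 0.68). Besides Hmox1, Adam17, a protease that sheds membrane proteins such as CD163, rose by 2.12 (SE 0.26), and Hp, haptoglobin, by 1.17 (SE 0.29). Slc19a1, the reduced folate carrier, was the 1 that fell, named after its value was seen, by 1.08 (SE 0.29).

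Most tested markers of macrophages in general, of monocytes and of neutrophils were higher in model. The summed level of 15 general macrophage markers was 1135 to 1493 CPM in model libraries and 344 to 616 CPM in control libraries, with 12 higher and 1 lower and none at 0 throughout a group. The lower gene, Aif1, named after its value was seen, fell by 0.94 (SE 0.29, adjusted p = 0.0138). It missed the threshold in 3 of 25 alternatives, among them that without control 1 (adjusted p = 0.0552). Cd68 was at 33.3 ± 6.97 CPM in model and 6.08 ± 2.08 CPM in control (SD, n = 8 and 6), and Clec4f counts per Cd68 count were 0.990 to 4.04 in model and 8.53 to 32.3 in control. Cd14 rose by 6.78 (SE 0.35) and Cybb by 3.40 (SE 0.32), while the C1q subunit genes C1qc and C1qa, the second named after its value was seen, did not pass the test, at log2 fold changes of -0.03 and -0.16. The remaining subunit gene, C1qb, also named after its value was seen, rose by 0.59 (SE 0.21, adjusted p = 0.0317). That call was lost in 10 of 25 alternatives, among them those without model 1, 3 or 4 and without control 3 or 5 (adjusted p up to 0.114). The summed level of 14 monocyte markers was 1302 to 1940 CPM in model and 553 to 1094 CPM in control. Most of the control sum came from F10, a coagulation factor also made by hepatocytes, and Fn1, fibronectin, both named after their values were seen. F10 was at 492 ± 116 CPM in model and 471 ± 55.2 CPM in control, and Fn1 at 452 ± 260 CPM in model and 207 ± 223 CPM in control (SD, n = 8 and 6). Neither passed the test (adjusted p = 0.794 for F10 and 0.0739 for Fn1), but Fn1 was called in 5 of 25 alternatives, among them that without control 6 (log2 fold change 1.97, adjusted p = 0.000926). The other 12 monocyte markers summed to 544 to 736 CPM in model and 16.2 to 50.3 CPM in control. Of 12 tested, 10 rose and 0 fell (median 5.35), among them Ly6c2, by 5.47 (SE 0.32), Ccr2, by 2.79 (SE 0.34), Chil3, by 6.58 (SE 0.39), and Thbs1, by 9.34 (SE 0.58), with 28 counts of Chil3 and 24 of Thbs1 over all controls. S100a4 and Cx3cr1, the second named after its value was seen, were too low to be tested. S100a4 had 2 counts over all model libraries and no count in control. Cx3cr1 had 32 counts over the model libraries and 32 over the control libraries. The summed level of 14 neutrophil markers was 1336 to 3004 CPM in model and 4.50 to 17.1 CPM in control. All 12 tested rose (median 7.79), led by Mmp8, at 9.99 (SE 0.43), and Il1r2, at 9.94 (SE 0.49). Mmp8 and Il1r2 rested on 4 and 6 counts over all controls. Ly6g had no count in any control and was at least 75.5-fold higher in model, against a floor of 3 counts over the control group, and with Ly6g at that bound the list's median was 7.53.

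Peritoneal macrophages share Timd4, Marco and Adgre1 with other resident macrophages, and their markers also moved. The summed level of 8 such markers was 99.0 to 173 CPM in model and 13.0 to 32.2 CPM in control. Of 6 tested, 5 rose (median 2.01), Selp by 5.33 (SE 0.42) and Cxcl13 by 5.03 (SE 0.29), both also made by other cells. Cxcl13 and Selp, at 66.5 and 24.7 CPM on average in model, held most of the mean model sum of 131 CPM. Gata6 and Icam2, named after their values were seen, rose by 1.67 (SE 0.38) and 1.74 (SE 0.25). Of the 7 markers of lipid-associated macrophages, 5 were tested, 4 rose and 1 fell (median 1.31), with Mmp12 higher by 3.58 (SE 0.47) and Cd9 by 2.10 (SE 0.23). Trem2 and Gpnmb, named after their values were seen, were too low to be tested and lay on opposite sides. Trem2 was at 0.335 ± 0.378 CPM in model and 1.01 ± 0.659 CPM in control. Gpnmb was at 1.68 ± 1.26 CPM in model and 0.124 ± 0.181 CPM in control (SD, n = 8 and 6). The 1 tested marker of this list that fell was Fabp5, a fatty acid binding protein named after its value was seen, by 1.19 (SE 0.35). The part of monocytes, neutrophils or peritoneal macrophages in the values of the 10 members was not tested. The tissue label was met in every library: Alb, the hepatocyte albumin gene, was at 52287 ± 8090 CPM in model and 29439 ± 10093 CPM in control (SD, n = 8 and 6), and Clec4f and Vsig4 had at least 619 and 71 counts in every library.

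**Figure D5:**
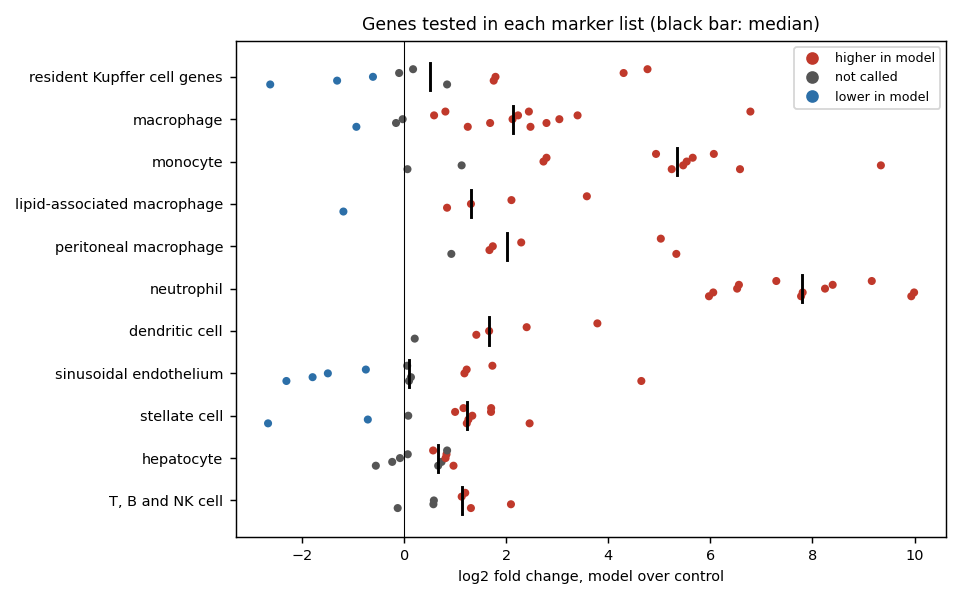
Log2 fold change (model over control) of each tested gene in the resident Kupffer cell set and in 10 lists of cell type markers, coloured by call, with a black bar at the median of each list. The resident Kupffer cell genes spread from -2.63 to 4.77 around a median of 0.51, while neutrophil markers lie around 7.79 and monocyte markers around 5.35.

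Total counts in genes were 10329469 to 16639972 in model libraries and 7914120 to 14463540 in control libraries. No pair of libraries agreed within sampling noise, and over 43 pairs within groups the lowest chi-square was 23.3 per degree of freedom.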

How the data were processed

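RNA of 8 model and 6 control livers was enriched for polyadenylated transcripts with oligo(dT) beads and sequenced on an Illumina instrument, per the labels' protocols. Each sample has its own deposited table of raw counts of reads per gene. Reads were aligned with HISAT2 to GRCm39, per the submitters' processing notes. The program used for counting, the annotation release and any strand setting were not given in the sources used here. The 5 summary lines of each file, 27.4% to 45.6% of its entries, name no gene and were left out of totals and tests.

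Genes were kept with filterByExpr. Model and control were compared with edgeR 4.0.16 in R 4.3.3 (TMM factors, robust quasi-likelihood fit, the group as the only term, Benjamini-Hochberg adjustment over 12915 genes, threshold 0.05). Log2 CPM used a prior count of 2. Each SE was obtained from the fold change and the F statistic, and 95% intervals use 12 residual degrees of freedom. Alternatives used limma 3.58.1 and DESeq2 1.42.0. The fit was tested on simulated data.

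Exonic lengths came from GENCODE for GRCm38 by gene identifier. The members and gene lists were chosen with earlier results of these data known. All members were named, with up to 3 called genes of each pathway list and 2 of each cell type list by absolute fold change (mean CPM of 1 or more in either group), 5 markers given by name (Cd68, Ly6c2, Ccr2, Stab2 and Alb, the last also picked by fold change), and the 5 genes most like Clec4f and Vsig4 (at least 5 CPM in both groups). Genes picked after their values were seen are marked as such.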

Additional observations from a re-analysis of the deposited data

Results flagged for a closer look

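The values of each member within each group were checked for a library set apart from the rest by a gap that was large against the group's whole range. Over 20 groups of values, 2 were found. For independent, normally distributed values such a gap is found in about 1 in 20 groups. CPM values need not be normal and the members share the same libraries, so that rate is only a rough guide here. Both were in control 6. Csf1r was at 40.2 CPM there, against 16.6 CPM in the next control, and Cd163 at 11.8 CPM, against 5.10 CPM in the next control. Control 6 also held the strongest tilt towards long transcripts among the controls (Spearman rho 0.56 across genes, on deviations from the control mean). Its share of entries that name no gene, 27.4%, was the smallest of all libraries.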

How the results depend on the processing

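Over 25 alternatives, Vsig4, Timd4, Marco, Cd163, Adgre1 and Spic kept their direction and their call in every one. The median log2 fold change of all genes was 0.01 with TMM factors, -0.23 with library totals, -0.14 with upper-quartile factors, -0.22 with an offset for length and GC content and 0.29 with no filter on low counts. The offset for length and GC gave 4391 lower genes, against 2751. Without control 3 and control 6, an alternative chosen after seeing the data, 5 members were higher and 3 lower.

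Cd5l was not called without model 7 and model 8 (log2 fold change -0.40) or with the replicate block (-0.42). Csf1r was called with limma-voom (1.06) and without control 3 and control 6 (1.71). The sign turned for Clec4f without model 7 and model 8 (0.17) and with the replicate block (0.17), for Folr2 with library totals (-0.067) and without model 3 and model 4 (-0.10), for Stab2 with library totals (-0.15), upper-quartile factors (-0.011), the length and GC offset (-0.22) and without model 3 and model 4 (-0.013), for C1qc without model 7 and model 8 (0.17) and with the replicate block (0.16), for C1qa in the same alternatives (0.075 and 0.10), and for F10 with library totals (-0.20), upper-quartile factors (-0.081) and the length and GC offset (-0.15). None of the values that turned passed the test, and the cause was not tested.

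Leaving out each library in turn gave 2975 to 3983 genes higher and 2452 to 2809 lower, 4 to 5 members higher and 2 to 3 lower. The log2 fold changes ranged from -0.21 to 0.0076 for Clec4f, -1.45 to -1.19 for Vsig4, -0.69 to -0.51 for Cd5l, 1.65 to 1.94 for Timd4, 4.16 to 4.76 for Marco, -2.89 to -2.15 for Cd163, 1.63 to 2.08 for Adgre1, 0.67 to 1.45 for Csf1r, 0.05 to 0.28 for Folr2, 4.61 to 4.86 for Spic, -0.12 to 0.043 for C1qc and -0.10 to 0.43 for Stab2.

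The labels do not say that equal replicate numbers pair samples, and their deviations did not run together: the correlation between same-numbered libraries was over 0.1 in 1 of 6 pairs and ranged from -0.34 to 0.36, and 1 of 6 model libraries correlated best with its own number. With the replicate block over replicates 1 to 6, 2949 genes were higher and 2207 lower, and 4 and 2 members. Among members, depth limits Cd163 most, at 3 to 23 counts per model library.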

Other observations

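Markers of cells that surround Kupffer cells moved in both directions. Of 11 markers of sinusoidal endothelium, 4 were higher and 4 lower in model (median log2 fold change 0.09). Beside this list and those below, 26.6% of all genes tested were higher and 21.3% lower. The lymphatic and sinusoidal receptor Lyve1 was at 120 ± 34.0 CPM in model and 4.77 ± 1.41 CPM in control (SD, n = 8 and 6), a rise of 4.65 (SE 0.27). Kdr, the main VEGF receptor, fell by 2.31 (SE 0.37), to 2.63 ± 1.33 CPM in model, against 13.2 ± 5.37 CPM in control. The others that fell, named after their values were seen, were the lectin Clec4g, by 1.80 (SE 0.34), Ehd3, at 11.9 CPM in model and 33.8 CPM in control on average (SE of the log2 fold change 0.23), and Gpr182, by 0.75 (SE 0.22, adjusted p = 0.0552 without control 3 and control 6). Stab2, a scavenger receptor of sinusoidal endothelium, did not pass the test (0.13, SE 0.31, adjusted p = 0.744). Of 11 stellate cell markers, 8 were higher and 2 lower (5 higher with library totals). The other gene that fell besides Lrat was Colec11, a collectin named after its value was seen, by 0.71 (SE 0.26), with the call lost in 8 of 25 alternatives, among them those without model 6, 7 or 8 and without control 1, 4 or 5 (adjusted p up to 0.126). Lrat, the enzyme that stores retinol in these cells, fell by 2.67 (SE 0.34), and Hhip, a hedgehog-binding protein, rose by 2.46 (SE 0.42).

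Of 11 hepatocyte markers, 4 were higher and 0 lower in model (2 and 1 with library totals), among them Trf, transferrin, by 0.97 (SE 0.17), and Alb, by 0.83 (SE 0.21; adjusted p = 0.0693 with library totals). Of 9 dendritic cell markers, 5 were tested and 4 were higher, Ccr7 by 3.79 (SE 0.41) and Itgax by 2.40 (SE 0.54). Of 11 markers of T, B and NK cells, 7 were tested and 4 were higher (2 with library totals), Nkg7 by 2.09 (SE 0.42) and Cd3d by 1.31 (SE 0.44), with the Cd3d call lost without model 3 and model 4 (adjusted p = 0.0653) and without control 3 and control 6 (0.0707).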
